A study of Homo sapiens with 4 samples.

Results

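The CNC factors and the small MAF factors are basic leucine zipper (bZIP) proteins that bind DNA as pairs of 1 CNC and 1 small MAF protein. Their 9 human genes, NFE2, NFE2L1, NFE2L2, NFE2L3, BACH1, BACH2, MAFF, MAFG and MAFK, were followed on Affymetrix HG-U133 Plus 2.0 expression arrays of U937 cells with and without the leukemic fusion protein AML1/ETO. Members were all probe sets whose annotation names one of these genes, including those that name several genes, which gave 22 of the 54613 probe sets that are not array controls. They cover 8 of the 9 genes, out of 19775 genes in the table. No probe set was annotated to MAFK, which was not analysed here. Of the 22, 4 also name another gene.

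U937 is an established line of human leukemia cells with monocytic features. U937-AE is 1 stably transfected clone with HA-tagged AML1/ETO behind the mouse metallothionein promoter, which zinc switches on, and U937-Mt is a bulk population with the empty pSGMtNeo vector. RNA was taken from both after 8 hours in 100 µM ZnSO4, so the controls had the zinc treatment and the vector too. For each cell line, RNA from 3 extractions was mixed into 1 pool and hybridized to 2 copies of the array. The 4 arrays therefore measured 2 pools, the spread between copies is hybridization error, and differences between the lines carry no p-value. The effect of the fusion protein cannot be told apart from that of picking a clone.

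In these pairs the CNC subunit decides whether a target gene is switched on or off. NFE2 (p45, of erythroid and megakaryocytic cells), NFE2L1, NFE2L2 (better known as NRF2) and NFE2L3 are activators, while BACH1 and BACH2 are repressors. The small MAF proteins have no activation domain of their own, so that pairs of small MAF proteins repress and pairs with an activating CNC protein induce. The sites they share, known as the antioxidant response element and the MAF recognition element, lie in genes of heme breakdown, iron storage, glutathione synthesis and platelet formation. NRF2 is kept low by KEAP1, which hands it to the proteasome, and BACH1 leaves DNA when it binds heme.

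Signals are linear intensities. Values below the median of an array were raised to that median, here called the floor (119.5 and 129.7 for U937-AE, 146.8 and 153.6 for U937-Mt), before log2 was taken. A probe set was called higher or lower where each U937-AE array stood over 1.5-fold above, or each over 1.5-fold below, each U937-Mt array (4 comparisons), and measured where its mean log2 signal reached the mean floor in at least 1 pool. The range given with each difference is that of the 4 comparisons.

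In U937-AE, both probe sets of the activator NFE2L3 were called higher, and the only probe set of NFE2, 1 of 2 probe sets of BACH2 and the measured probe set of MAFG were called lower. NFE2L1, NFE2L2, BACH1 and MAFF had no call. Counted over all members, 2 of 22 probe sets were called higher and 3 lower, where 1.29% of all 54613 probe sets were called higher and 2.74% lower. Among the 14 measured members 2 were called higher and 3 lower, against 2.45% and 5.18% of the 28882 measured probe sets. By gene, 1 was called higher and 3 lower of 8, against 2.6% and 6.12% of 12933 measured genes. With the arrays scaled to their hybridization spike-ins, 2 measured members were called higher and 1 lower, against 9.87% and 1.76% of measured probe sets. As reported, the 14 measured members had a median log2 difference of -0.23, and all measured probe sets one of -0.09. The signals of the cell lines did not overlap for 10 of the 14, a share to be read against 60.3% of all measured probe sets. The other 8 member probe sets were below the floor on all 4 arrays. The floor alone gives such a probe set a log2 difference of -0.27, so no direction was measured for them.

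**Figure D1:**
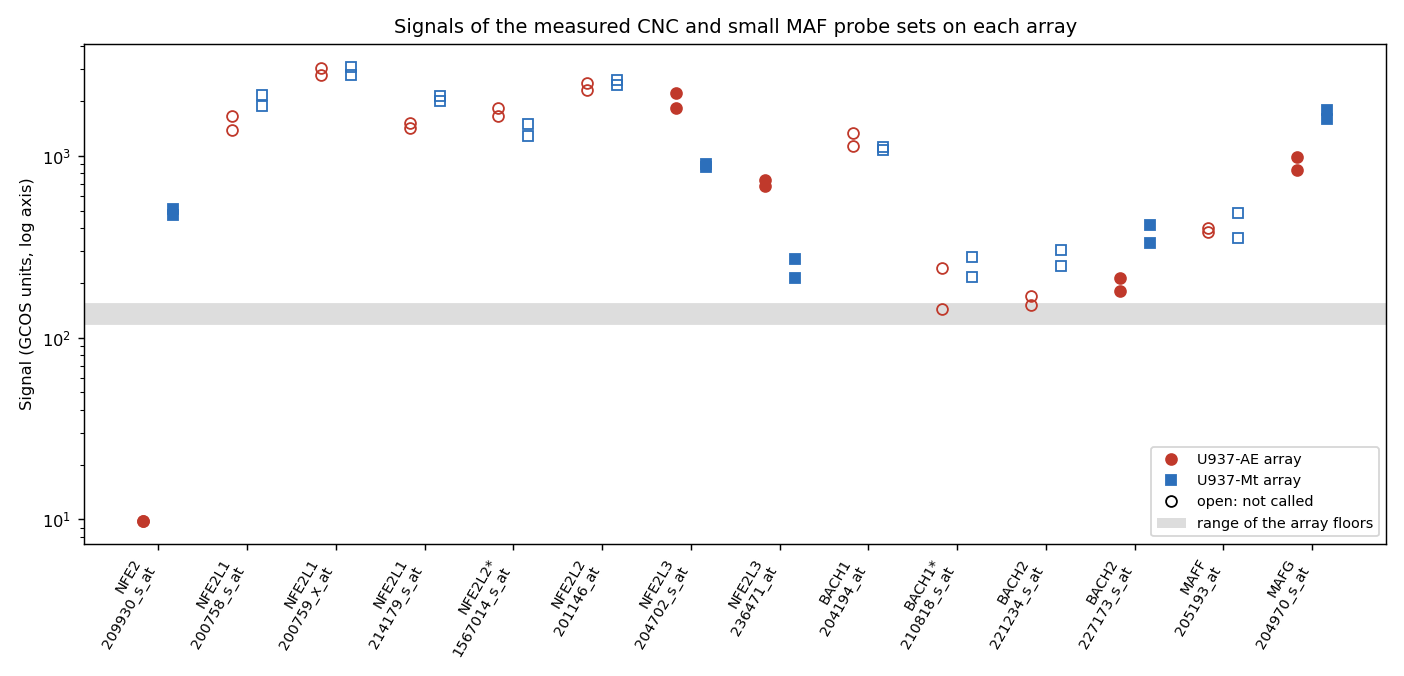
Signal in GCOS units (log axis) of the 14 measured member probe sets on each U937-AE array (circles) and each U937-Mt array (squares), filled where the probe set was called and with the range of the 4 array floors in gray; an asterisk marks probe sets that name several genes. NFE2 lies far below the floor on both U937-AE arrays, and the NFE2L3 circles lie above the squares, whereas those of BACH2 and MAFG lie below them.

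Stretches of 250 bases upstream of the annotated start site, which could be read for 7 of the member genes in 12 windows (RefSeq, GRCh38.p14), were scanned for the AML1 motifs TGTGGT and TGCGGT, through which AML1/ETO can contact DNA, for the E-box CANNTG of the E-proteins it partners with, and for the sites of the family's own proteins. No window was available for MAFK or for NFE2, which was called lower, so NFE2 was not scanned. The 3 shown belong to the other genes with a call. Capitals mark E-boxes, and all 3 windows lack both AML1 motifs. They lie at chr7:26151948-26152197 on the forward strand for NFE2L3, at chr6:90296844-90297093 on the reverse strand for BACH2 and at chr17:81927736-81927985 on the reverse strand for MAFG, and each is written 5′ to 3′ on the strand of its gene.
NFE2L3: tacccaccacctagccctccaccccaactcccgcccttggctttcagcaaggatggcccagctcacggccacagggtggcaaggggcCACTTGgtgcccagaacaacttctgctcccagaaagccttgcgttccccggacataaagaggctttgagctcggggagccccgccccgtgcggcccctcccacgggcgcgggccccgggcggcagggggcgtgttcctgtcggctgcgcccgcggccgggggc
BACH2: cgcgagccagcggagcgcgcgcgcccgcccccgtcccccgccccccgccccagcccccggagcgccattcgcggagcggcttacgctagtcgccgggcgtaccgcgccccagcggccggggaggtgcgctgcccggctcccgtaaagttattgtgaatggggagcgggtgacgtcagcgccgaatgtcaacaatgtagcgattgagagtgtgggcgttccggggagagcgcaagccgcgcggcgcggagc
MAFG: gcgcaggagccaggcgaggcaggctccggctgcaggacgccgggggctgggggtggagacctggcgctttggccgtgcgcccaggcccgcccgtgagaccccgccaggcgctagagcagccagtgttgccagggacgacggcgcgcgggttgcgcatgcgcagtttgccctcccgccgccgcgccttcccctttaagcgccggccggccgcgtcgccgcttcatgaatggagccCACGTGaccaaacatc

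The E-box of NFE2L3 begins 163 bases before the start site and that of MAFG 16 bases before it, and the window of BACH2 holds none. E-boxes were found on 7 of the 12 member windows and on 61.8% of 35116 promoter windows of the same length. TGTGGT was in 0 of the 12, against 11.0% of all windows on either strand. TGCGGT was in 2, in a window of NFE2L1 and a window of MAFF, against 5.84%. The antioxidant response element TGACNNNGC was in 1, the same MAFF window, against 10.9%. GCTGAGTCA, a part of the MAF recognition element, was in 0, against 0.456%. GC content was 70.8% for NFE2L3, 73.6% for BACH2 and 73.2% for MAFG. These matches describe letters in short windows, and binding at them was not analysed here.

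NFE2, the p45 subunit that drives globin and platelet genes, had signals of 9.8 and 9.8 for U937-AE, against 506.8 and 472.1 for U937-Mt (probe set 209930_s_at). Both U937-AE signals were below the floor and both U937-Mt signals above it. The difference was therefore a bound, at least 3.93-fold lower in U937-AE (3.64 to 4.24), with a log2 difference of -1.97. It stayed called with spike-in scaling (-1.63), and leaving out single arrays moved it between -2.03 and -1.92. With a floor at the 75th percentile it was -0.13 and not called. In bulk RNA, fewer cells with a transcript and less transcript per cell cannot be told apart, here and for every member below.

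The neighbouring lineage markers were read beside NFE2. Of 5 erythroid markers, 4 had a probe set that names only that gene, 3 were measured and 0 were called, and their summed signal was 3378 and 3615 for U937-AE, against 4383 and 3772 for U937-Mt. GATA1, the defining factor of that lineage, reached the floor on 1 of 4 arrays. Of 4 megakaryocyte markers, 2 were measured and 0 called, with summed signals of 578.6 and 518.4 for U937-AE, against 684.2 and 470.1 for U937-Mt, and GP9 was below the floor on all 4 arrays. The sums of the megakaryocyte markers overlapped between the cell lines. Those of the erythroid markers did not, which rested on EPOR alone, since without it they were 517.1 and 717.8 for U937-AE, against 612.1 and 741.0 for U937-Mt and overlapped. Their part in the NFE2 result was not tested.

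The 3 genes whose log2 signals after the floor lay closest to those of NFE2 over the 4 arrays, each centred on its own mean, were FRMD4B, RXRA and CES1, with Euclidean distances of 0.032, 0.043 and 0.084 among 12932 other measured genes. Both U937-AE values of NFE2 were set by the floor, as were those of FRMD4B and CES1, so these distances measure likeness to the floored values only.

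NFE2L3, an activator anchored in the membrane of the endoplasmic reticulum, moved in the other direction. Probe set 204702_s_at gave 2208 and 1840 for U937-AE, against 896.6 and 871.3 for U937-Mt, and was 2.28-fold higher (2.05 to 2.53). Probe set 236471_at gave 740.2 and 678.3 for U937-AE, against 212.6 and 272.1 for U937-Mt, and was 2.95-fold higher (2.49 to 3.48). In both, each U937-AE array was over 2-fold above each U937-Mt array, and no other member gene had every probe set called while above the floor on all arrays. The log2 differences were 1.19 and 1.56. The first was called under every alternative except the methods' t-test after adjustment. The second was 0.51 and not called with a floor at the 75th percentile. Closest to the first probe set were BMS1P20, KPNA5 and ITGB1, at distances of 0.096, 0.106 and 0.107. ITGB1, the integrin beta 1 chain, gave 10187 and 8959 for U937-AE, against 4590 and 4288 for U937-Mt.

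NFE2L1, also an activator of the endoplasmic reticulum membrane, which induces proteasome genes when proteasomes fail, had 3 measured probe sets and no call. The signals of 214179_s_at were 1427 and 1509 for U937-AE, against 2128 and 2003 for U937-Mt, a log2 difference of -0.49 (-0.58 to -0.41). Those of 200758_s_at were 1389 and 1666 for U937-AE, against 2159 and 1870 for U937-Mt (-0.40, -0.64 to -0.17). In 214179_s_at all 4 comparisons stayed within 1.5-fold, in 200758_s_at only some did, and in both the cell lines did not overlap. In 200759_x_at, whose suffix marks probes that can bind other transcripts, they overlapped, with 3057 and 2803 for U937-AE, against 3094 and 2799 for U937-Mt (-0.01). Scaled to the spike-ins, the 3 differences were -0.15, -0.06 and 0.34, in the same order, and none was called.

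NFE2L2, which encodes NRF2, had 4 probe sets, of which 2 were measured and 0 called. Probe set 201146_at gave 2312 and 2522 for U937-AE, against 2607 and 2449 for U937-Mt, so the cell lines overlapped (-0.07, -0.17 to 0.04). With arrays scaled to the spike-ins it was 0.28 and not called. Probe set 1567014_s_at, which also names the kinase gene CSNK2A1, gave 1649 and 1824 for U937-AE, against 1294 and 1490 for U937-Mt (0.32, 0.15 to 0.49). Which of its genes this signal belongs to cannot be told apart. Both others, 1567013_at and 1567015_at, were below the floor on all 4 arrays.

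BACH1, the heme-binding repressor of HMOX1, had 6 probe sets, of which 2 were measured and 0 called. In 204194_at the cell lines did not overlap, with 1331 and 1131 for U937-AE, against 1080 and 1112 for U937-Mt, and the log2 difference was 0.16 (0.02 to 0.30). In 210818_s_at, which also names the antisense gene GRIK1-AS2, they overlapped, with 240.2 and 143.3 for U937-AE, against 215.8 and 276.0 for U937-Mt. Its 2 U937-AE copies differed by 1.68-fold, more than those of any other measured member, and its log2 difference of -0.40 (-0.95 to 0.15) was -0.77 and called lower without the first U937-AE array. On all arrays the other 4 probe sets, of which 2 name several genes, lay under the floor.

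BACH2, a repressor of lymphoid cells, held, by the weakest of the 4 comparisons, both the called and the uncalled probe set nearest to the 1.5-fold threshold. Probe set 227173_s_at gave 179.9 and 212.3 for U937-AE, against 330.3 and 417.5 for U937-Mt, and was called at 1.90-fold lower (1.56 to 2.32). Probe set 221234_s_at gave 151.7 and 169.1 for U937-AE, against 303.6 and 248.3 for U937-Mt, and was not called, at 1.71-fold lower (1.47 to 2.00). In both, the cell lines did not overlap and the U937-AE signals lay close to the floor. The log2 difference of the called one, -0.93, was not called at -0.74 after quantile normalization, at -0.66 with arrays shifted to the same median, at -0.58 with spike-in scaling and at -0.10 with the 75th percentile floor. That of the other, -0.78, was called at -0.86 without the second U937-AE array and at -0.92 without the second U937-Mt array. Of 4 B cell markers, 3 had a probe set that names only that gene, 2 were measured and 0 called, with summed signals of 1286 and 1142 for U937-AE, against 1267 and 1211 for U937-Mt, and the part of such cells in the BACH2 result was not tested. GRIN2D, ABTB3 and CHRNE were closest to the called probe set, at distances of 0.040, 0.062 and 0.069. On the first U937-AE array CHRNE was below the floor (84.4), so that value was set by the floor, and GRIN2D lay just above it (120.5).

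**Figure D2:**
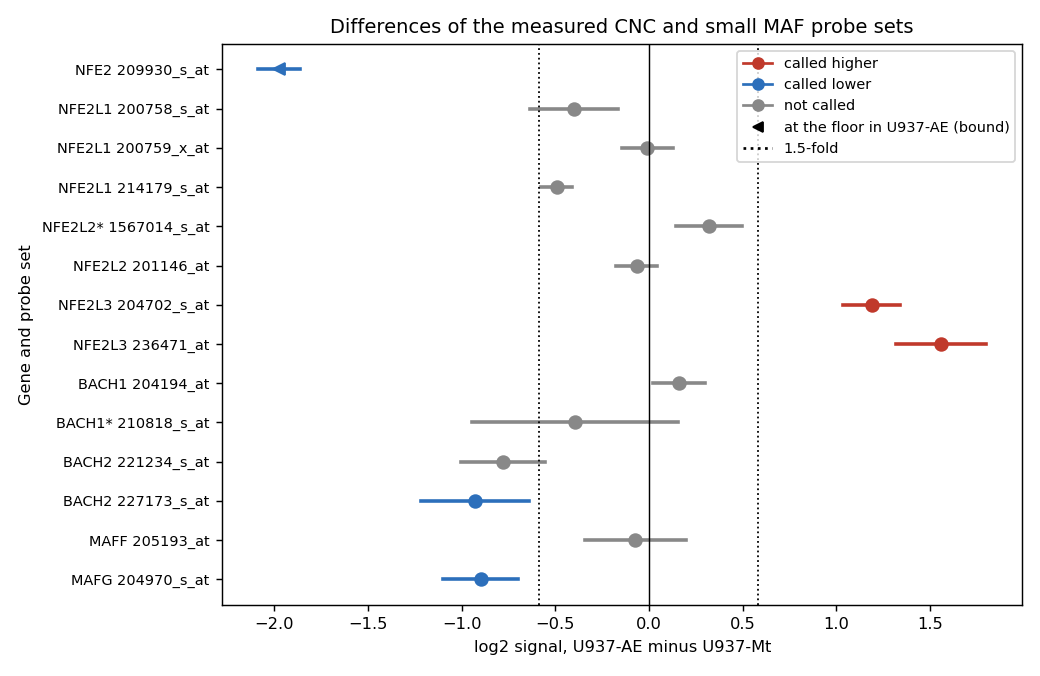
Log2 difference, U937-AE minus U937-Mt, of the 14 measured member probe sets: points are differences of the mean log2 signals after the floor, bars span the 4 comparisons of single arrays, dotted lines mark 1.5-fold, and the arrow marks a bound. Both NFE2L3 bars lie right of the dotted line and those of NFE2, MAFG and 1 BACH2 probe set left of it, while the other BACH2 bar crosses it.

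Among the small MAF partners, MAFG was called lower and MAFF was not called. MAFG gave 834.3 and 980.3 for U937-AE, against 1785 and 1589 for U937-Mt, on probe set 204970_s_at, and was 1.86-fold lower (1.62 to 2.14), with no overlap. Its log2 difference, -0.90, was not called at -0.63 with arrays shifted to the same median or at -0.55 with spike-in scaling, and leaving out single arrays moved it between -1.01 and -0.78. The other MAFG probe set, 224466_s_at, gave 44.2 and 30.6 for U937-AE, against 73.3 and 89.4 for U937-Mt, below the floor on all 4 arrays. RAB7B, TSPAN17 and ARHGEF18 were closest to the called probe set, at distances of 0.031, 0.036 and 0.039.

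MAFF, the small MAF gene best known for its rapid induction by stress, overlapped between the cell lines on probe set 205193_at, with 403.3 and 381.2 for U937-AE, against 351.5 and 483.4 for U937-Mt (-0.07, -0.34 to 0.20). On 36711_at it gave 98.2 and 121.8 for U937-AE, against 31.6 and 49.6 for U937-Mt. All of these were below the floor, so the difference of this probe set is not measured here, although without a floor it was called higher (1.47). Of the 4 other MAF genes, 2 had a probe set that names only that gene, MAF and NRL, and both were below the floor on all arrays.

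**Figure D3:**
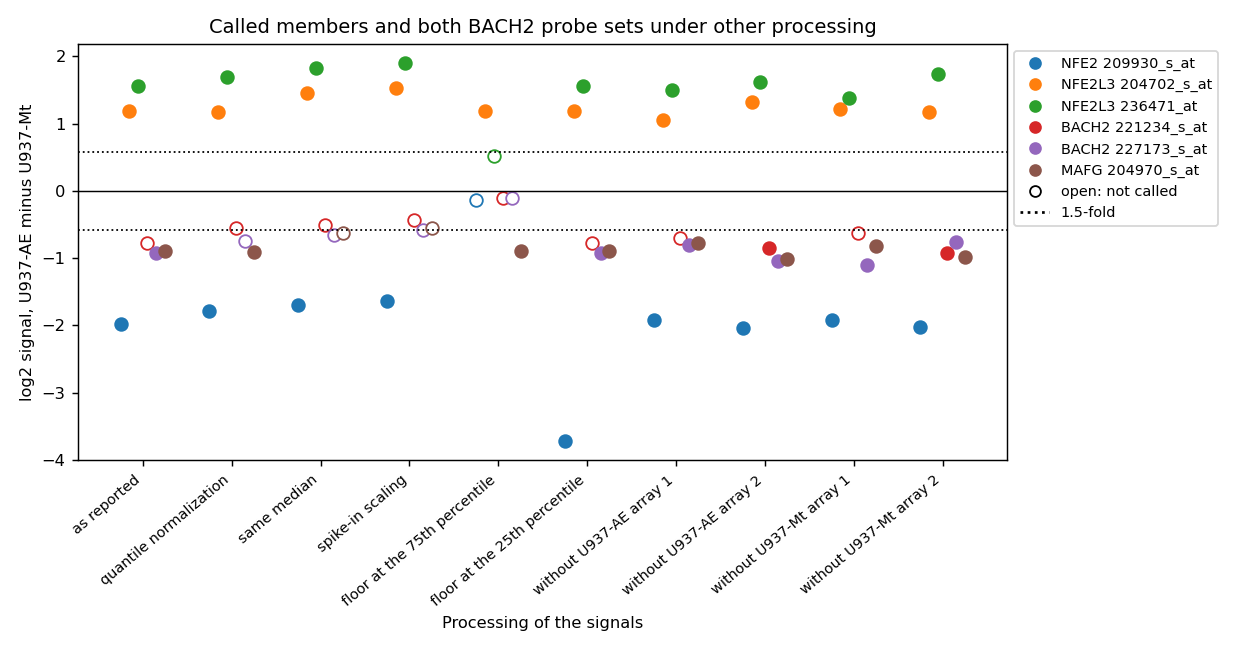
Log2 difference, U937-AE minus U937-Mt, of the 5 called member probe sets and of the uncalled BACH2 probe set, as reported and under 9 other ways of processing, filled where called, with dotted lines at 1.5-fold. NFE2L3 204702_s_at is filled throughout, NFE2 and NFE2L3 236471_at are open only at the 75th percentile floor, and MAFG and BACH2 are open under spike-in scaling.

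Proteins that control the stability or release of CNC factors had no call. Of 21 such genes, 19 had a probe set that names only that gene and all 19 were measured, with a median log2 difference of 0.22, against -0.10 over all measured genes. KEAP1, the adaptor that hands NRF2 to its ubiquitin ligase, gave 2869 and 2718 for U937-AE, against 1862 and 2134 for U937-Mt, a log2 difference of 0.49 (0.35 to 0.62) with no overlap. The 19 differences ran between -0.17 and 0.62. With spike-in scaling, where the median of all measured genes was 0.24, that of the list was 0.56 and 4 of its genes were called higher, against 10.6% of measured genes. These were KEAP1 and, chosen after their values were seen, RBX1 and FBXW11, subunits of ubiquitin ligases, and VCP, which pulls proteins out of membranes.

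Of 25 target genes of NRF2 and BACH1, 23 had such a probe set and 20 were measured. In U937-AE 4 were called higher and 1 lower, against 2.6% and 6.12% of all measured genes. The median log2 difference was 0.10, beside -0.10 for all measured genes. HMOX1, the heme oxygenase gene that BACH1 represses and NRF2 induces, was 4.40-fold higher, at 8807 and 8888 for U937-AE, against 2128 and 1902 for U937-Mt. The aldo-keto reductase genes AKR1C3, AKR1C2 and AKR1C1 were 18.6-fold, 13.6-fold and 12.5-fold higher. The 3 AKR1C genes are similar in sequence, and a probe set of one can pick up transcripts of another. Their folds are therefore not counted as 3 separate results. The probe sets used for AKR1C1 and AKR1C2 have the suffix _x_at, and that of AKR1C3 does not. How much signal they share was not tested.

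NQO1, the quinone reductase gene read most often as a sign of NRF2 activity, gave 1522 and 1602 for U937-AE, against 917.2 and 1077 for U937-Mt, on its brightest probe set, which was not called (0.65, 0.50 to 0.80). Both its other probe sets were called higher, 1 at 0.89 and the other, with both U937-Mt signals below the floor, at a bound of 1.13. In the other direction, GCLM, the modifier subunit of the enzyme that limits glutathione synthesis, which was chosen after its values were seen, was 1.92-fold lower (1.66 to 2.23), at 1210 and 1307 for U937-AE, against 2698 and 2164 for U937-Mt. All 3 of its probe sets were called lower, and with spike-in scaling its difference was -0.60 and not called. With that scaling 6 genes of the list were called higher, NQO1 and the peroxiredoxin gene PRDX1 (chosen after its values were seen) in addition, and 0 lower. Of all measured genes, 10.6% were then called higher.

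Heme is the ligand that takes BACH1 off DNA, so genes of its synthesis, breakdown and transport were read as well. HMOX1, the heme oxygenase gene called higher above, was counted with the target genes and not in this list. Of 17 other such genes, 13 were measured, 0 called higher and 1 lower. Their median log2 difference was -0.28, beside -0.10 for all measured genes. The gene called lower was SLC48A1, a heme transporter of endosomes, at 239.0 and 282.7 for U937-AE, against 588.8 and 575.6 for U937-Mt, or 2.24-fold lower (2.04 to 2.46). All 3 of its probe sets were called lower. With spike-in scaling SLC48A1 stayed called (-0.82), the heme exporter gene FLVCR1, chosen after its values were seen, was called higher, and the median of the list was 0.07, beside 0.24 for all measured genes.

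Megakaryocyte and platelet genes, among them targets of NFE2, had 0 calls among 8 measured of 14, with a median of 0.01. The proteasome subunits, which NFE2L1 induces, had 0 calls among 27 measured of 31, with differences between -0.20 and 0.37 and a median of 0.13. With spike-in scaling 1 gene of each list was called higher, ITGA2B and PSMD12, both chosen after their values were seen, and the medians were 0.35 and 0.47, beside the same 0.24. Over all measured genes, 8.71% were called in either direction as reported and 12.8% with spike-in scaling.

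RUNX1T1, the gene of the ETO portion of the fusion, checks the labels: 1 of its 7 probe sets gave 1362 and 1299 for U937-AE, against 8.6 and 7.6 for U937-Mt, at least 8.86-fold higher, and the other 6 were not called. Log2 signals of copies of a pool correlated with r between 0.919 and 0.935, and those of arrays of different cell lines between 0.910 and 0.916. The 3′/5′ signal ratios were 1.05 to 1.09 for GAPDH and 1.21 to 1.25 for ACTB in U937-AE, and 1.09 to 1.12 and 1.33 to 1.43 in U937-Mt. In U937-Mt the spike-ins, transcripts added at hybridization, gave 1.27-fold more signal, and scaling to them gave 2850 probe sets called higher and 508 lower in place of 707 and 1496. Of 9 monocytic and myeloid markers, 5 were measured and 2 called lower, MPO and LYZ, with LYZ not called under spike-in scaling. The defining monocyte markers CD14 and FCGR1A were below the floor on all 4 arrays. The summed signal of the 7 markers with a probe set was 15109 and 15973 for U937-AE, against 33512 and 31541 for U937-Mt. MPO, which was 8.92-fold lower, made up most of that gap, and without it the sums were 13211 and 14415 for U937-AE, against 17395 and 16950 for U937-Mt. No marker of T cells (1 measured of 4), B cells (2 of 4), fibroblasts (3 of 4) or epithelium (0 of 3) was called. The part of the spike-in shift and of the myeloid markers in the members' results was not tested beyond the scaled values given with them.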

How the data were processed

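RNA pools of U937-AE and U937-Mt cells were hybridized to 2 copies each of the HG-U133 Plus 2.0 array. The authors deposited linear intensities, 1 for each probe set on each array, computed with GCOS at default settings (version not given in the sources used here), which corrects the background and scales each array. It covers 54675 probe sets, 62 of them controls, with 0 columns of other samples. Probe sets with 1 gene symbol numbered 41097, those with several 1801 and unnamed ones 11777. No depth applies to arrays, whose number limits the precision.

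From these intensities, signals below the 50th percentile of an array were raised to it, log2 was taken, and the call rule (all 4 comparisons over 1.5-fold in 1 direction) was applied to all probe sets. In the gene lists a gene took its probe set with 1 symbol and the highest mean log2 signal. Members and lists were chosen with earlier results of these data known. All members are given. From each list the 4 called genes with the largest difference are named, with KEAP1, HMOX1, NQO1, RUNX1T1 and, for each called member gene, the 3 genes nearest by Euclidean distance.

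Alternatives were other floors, quantile normalization, a common median, scaling to the 18 spike-in probe sets, 2-fold calls, the mean over 1.5-fold, limma with and without the array number as a block, the methods' t-test over 2-fold, other probe sets for the lists, and leaving out each array. Windows upstream of RefSeq starts were searched on both strands. Python 3.11.15, numpy 2.4.6, pandas 2.3.3, scipy 1.17.1, matplotlib 3.10.9, R 4.3.3 and limma 3.58.1 were used.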

Additional observations from a re-analysis of the deposited data

How the results depend on the processing

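As reported, 2 member probe sets were called higher and 3 lower, beside 707 and 1496 of all probe sets. The members were 3 and 4 with no floor (1744 and 4809 of all) and with a floor at the 25th percentile (1172 and 3216), and 1 and 1 with the 75th percentile floor (415 and 552). They were 2 and 2 after quantile normalization (952 and 1042), 2 and 1 with the same median (2023 and 667) and 2 and 1 with spike-in scaling (2850 and 508). They were 2 and 1 at 2-fold (191 and 447) and 2 and 4 with the mean over 1.5-fold (1468 and 3717). The methods' t-test with 2-fold gave 2 and 1 (271 and 669), and after Benjamini-Hochberg adjustment 0 and 0 (0 and 0). Leaving out 1 array gave 2 higher and 3 to 4 lower members, and 1057 to 1315 higher and 2256 to 3378 lower probe sets, since fewer comparisons then have to pass.

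The array numbers are shared only as numbers: the differences between copies 1 and 2 correlated with r = 0.046 between the pools over 22349 probe sets. Limma called 2 and 4 members (1193 and 2494 of all) without the replicate block, and 2 and 4 (1457 and 3692) with it, where p-values cover the spread between copies only.

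The difference of MAFF 36711_at, set to -0.27 by the floor, was 1.47 with no floor and 1.18 with the 25th percentile floor, and MAFG 224466_s_at was then called lower at -1.14 and -0.96, because their signals lie below the floor used here. Calls of BACH2 and MAFG that ended under other scalings are given with those genes. Under the t-test with 2-fold BACH2 227173_s_at and MAFG 204970_s_at lost their calls, after adjustment all 5 called members did, and both limma fits also called BACH2 221234_s_at lower. Over the counts and the members' differences, 446 values under an alternative were the same, 10 lost and 6 gained a call, 86 moved and 2 reversed. The 2 reversed values are those of MAFF 36711_at, which gained a call as higher. Its reported -0.27 was set by the floor, so no measured direction was reversed. Same means within 1.5 times for a count, and still called in that direction for a called difference. An uncalled difference was the same where it stayed uncalled and shifted by no more than the standard deviation of its 4 comparisons. Moved means a count beyond that limit, or an uncalled difference that shifted further without gaining a call. Same allows a change of sign near 0, as for MAFF 205193_at, at -0.07 as reported and 0.06 after quantile normalization. These totals include the floor-dependent calls above, but not the calls of single members under the t-tests and limma. With 1 pool per cell line, culture and extraction error was not measured, and signals near the floor have no reliable fold change.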
